A study of Mus musculus with 8 samples.

Results

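Uninjured low thoracic spinal cord was profiled by single-nucleus RNA sequencing in separate experiments, and the libraries that served as uninjured references were compared here within each class of nuclei. The first reference was the pair of untraced libraries of experiment 1 (replicates 1 and 2), which hold nuclei without GFP from cords whose lumbar-projecting neurons had been traced. The second was the single uninjured control library of experiment 2, which the submitters made beside 2 hemisection libraries. Nuclei were taken from the deposited annotation, for every class with at least 20 nuclei in each of the 3 libraries. This gave 8552 nuclei in 4 of the 6 annotated classes, of 9460 nuclei in these libraries and 12447 in the series. All animals were wild-type C57BL/6 mice and the same part of the cord was taken in both experiments. For projection-specific work the labels describe an added passage through a cell sorter, and they give neither the age nor the number of animals behind a library. Experiment, sorting and reference therefore cannot be told apart here. The p-values measure only the spread between the libraries, pooled over genes as given below.

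Neurons of the spinal cord carry sensory and motor signals. Oligodendrocytes wrap their axons in myelin, oligodendrocyte precursor cells (OPC) divide and renew the oligodendrocytes, and microglia are the resident immune cells. RNA in a nucleus is mostly unspliced or newly made, whereas transcripts encoded by the mitochondrial genome and most mature messages for ribosomal proteins lie in the cytoplasm. In droplet sequencing, cytoplasmic RNA and RNA released by other cells can be captured together with a nucleus.

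Neurons numbered 354 and 123 in untraced replicates 1 and 2 and 2148 in the uninjured library of experiment 2. The numbers in the same order were 1256, 520 and 3164 for oligodendrocytes, 66, 31 and 177 for OPC, and 149, 198 and 366 for microglia. Astrocytes (103, 10 and 594) and vascular cells (8, 5 and 188) fell below the minimum and were not tested. Median UMIs per nucleus, which count distinct captured transcripts, were 8522, 5767 and 8907 in neurons, 3205, 2044 and 3347 in oligodendrocytes, 4577, 2810 and 4839 in OPC, and 2080, 1630 and 2575 in microglia. Untraced replicate 2 was the shallowest in every class. Summed UMIs ran from 92874 (OPC of untraced replicate 2) to 20739862 (neurons of the uninjured library). Each class carried its own markers in all 3 libraries: the summed neuron markers stood at 9391, 8938 and 8707 CPM in neurons (a gene's UMIs relative to all UMIs of the sum, on the usual CPM scale), and the oligodendrocyte markers at 21895, 19519 and 23672 CPM in oligodendrocytes. OPC markers in OPC summed to 29683, 28673 and 23607 CPM, and microglial markers in microglia to 15259, 13076 and 10724 CPM. The 4489 non-neuronal nuclei of the uninjured library carry no barcode sequence in their names, while its neurons do. Whether these nuclei came from the same preparation as its neurons could not be worked out, which bears on each comparison of neurons with the other classes. Between the libraries, 1, 0 and 2 barcode sequences were shared.

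The uninjured library of experiment 2 differed from the untraced libraries in every class, and most of the differing genes were higher in it. In neurons 432 of 12936 tested genes were called (3.34% of those tested), 372 higher (2.88%) and 60 lower (0.464%). In oligodendrocytes 1273 of 12944 were called (9.83%), 934 higher (7.22%) and 339 lower (2.62%). In OPC 141 of 7035 were called (2%), 120 higher (1.71%) and 21 lower (0.299%). In microglia 1012 of 7716 were called (13.1%), 885 higher (11.5%) and 127 lower (1.65%). A call is a Benjamini-Hochberg adjusted p under 0.05 in edgeR's quasi-likelihood test of the summed counts, with the uninjured library minus the untraced libraries as the contrast. The median log2 fold change of all tested genes stayed near 0, between −0.02 and 0.04. DESeq2 called fewer genes from the same sums, namely 57 in neurons (0.441%), 345 in oligodendrocytes (2.67%), 11 in OPC (0.156%) and 65 in microglia (0.842%). With each sum thinned to the smallest total of its class, 270 genes were called in neurons, 57 in OPC and 777 in microglia. In oligodendrocytes 0 were then called by edgeR, while 1553 of 10290 had an unadjusted p under 0.05. The uninjured arm has 1 library, which was assumed to vary like the untraced pair. The fits of neurons, OPC and microglia set every gene's spread to a trend over all genes. A gene's own spread between the libraries did not enter its p-value there. In oligodendrocytes this was not so for all genes.

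A total of 42 genes were called in the same direction in all 4 classes, of 5876 genes tested in all of them (0.715%). Of these, 41 were higher in the uninjured library and 1 was lower. The higher genes comprised 8 transcripts of the mitochondrial genome, 10 genes of cytoplasmic ribosomal proteins and 23 others. Among the others were the neurofilament genes Nefl, Nefm and Nefh, the neuronal surface protein gene Thy1, the synaptic vesicle gene Syt2, the sodium pump gene Atp1b1, the chaperones Hsp90aa1 and Hspa8, and nuclear-encoded genes of mitochondrial proteins (Ndufa4, Cox6c, Atp5a1, Atp5o, Chchd2). These were named after their values were seen. A further 101 genes were called higher in 3 classes and 6 lower in 3. The class without the call was OPC for 57 of the 101, neurons for 30, oligodendrocytes for 9 and microglia for 5. DESeq2 called 3 genes in every class. With the hemisection and traced libraries in the fit, 34 genes were called in every class, 33 of them among the 42. That fit called 25 genes without untraced replicate 1 and 14 without untraced replicate 2. With the thinned totals edgeR called 0 of 2457 in every class, and 39 had an unadjusted p under 0.05 in all 4 with the same sign. Since 0 genes were called in oligodendrocytes in that setting, the count called in every class could only be 0.

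**Figure D1:**
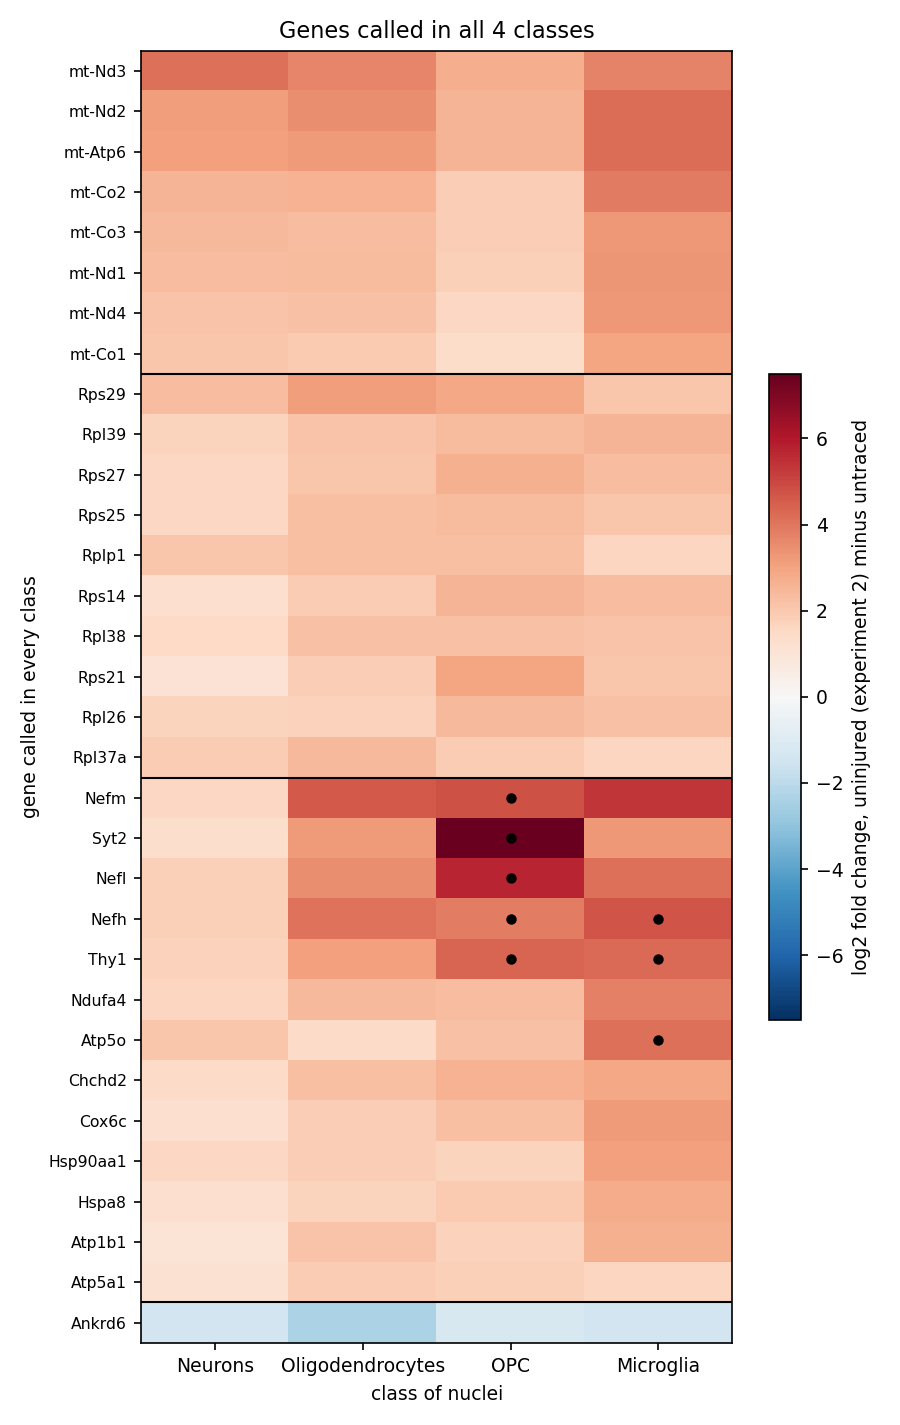
Log2 fold change (colour) of genes called in every class, as rows, in each class, as columns; positive values are higher in the uninjured library of experiment 2. Lines separate 8 mitochondrially encoded genes, 10 ribosomal protein genes and the other higher genes named in the text from the lower gene Ankrd6, and dots mark cells with at most 3 untraced UMIs, whose fitted values depend on the model's prior count.

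Mitochondrially encoded transcripts were called higher in each class. All 13 were called higher in neurons and in oligodendrocytes, 12 of 12 tested in microglia and 8 of 12 tested in OPC, with median log2 fold changes of 2.57, 2.61, 3.52 and 1.85. Their summed level in neurons was 936 and 661 CPM in the untraced libraries and 4639 CPM in the uninjured one. In oligodendrocytes the sum was 817 and 1192 against 6426 CPM, in OPC 1205 and 2326 against 5710 CPM, and in microglia 549 and 1183 against 9576 CPM. The groups did not overlap in any class, and microglia had the highest sum in the uninjured library and the lowest in untraced replicate 1.

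mt-Atp6, a subunit of ATP synthase, stood at 98.9 and 77.2 CPM in untraced neurons and 812 CPM in the uninjured ones (log2 fold change 3.08, SE 0.27, adjusted p = 3.31e-25). In oligodendrocytes mt-Atp6 was at 98.0 and 121 against 1216 CPM (3.20, SE 0.21, adjusted p = 2.69e-07). In microglia it was at 63 and 131 against 1799 CPM (4.16, SE 0.38, adjusted p = 1.42e-23), and in OPC at 132 and 258 against 1057 CPM (2.54, SE 0.32, adjusted p = 2.2e-12). The uninjured library lay far above both untraced ones each time. mt-Nd3, a subunit of complex I, had log2 fold changes of 4.12 in neurons, 3.66 in oligodendrocytes, 2.71 in OPC and 3.75 in microglia. For mt-Nd2 and mt-Nd1, of the same complex, they ran from 2.52 (OPC) to 4.18 (microglia) and from 1.77 (OPC) to 3.30 (microglia). For mt-Co2 and mt-Co3, of complex IV, they ran from 1.84 to 3.90 and from 1.87 to 3.28, again lowest in OPC and highest in microglia. The share of nuclei with more than 1% of their UMIs from mitochondrial transcripts was 22.4% in uninjured microglia against 0 and 0.505% in untraced ones, and 14.8% against 1.43% and 1.92% in oligodendrocytes. In neurons it was 10.4% against 0.847% and 0.813%, and in OPC 14.1% against 1.52% and 9.68%. Without the nuclei over this limit, which was set with the values known, 35 genes were called in every class.

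Of 30 genes of cytoplasmic ribosomal proteins, all of them tested in every class, 15 were called higher in neurons, 28 in oligodendrocytes, 8 in OPC and 23 in microglia, and 0 were called lower. All 30 had positive fold changes in every class, with medians of 1.19, 1.93, 1.66 and 1.53. Rps29, a protein of the small subunit, was at 29.6 and 17.9 against 136 CPM in neurons (2.33, SE 0.34, adjusted p = 3.79e-09) and at 32.3 and 20.4 against 297 CPM in oligodendrocytes (3.14, SE 0.28, adjusted p = 5.07e-06). In OPC Rps29 was at 40.0 and 0 against 229 CPM, and in microglia at 69.0 and 143 against 456 CPM (2.06, SE 0.38, adjusted p = 2.27e-06). Ribosomal protein genes have many near-identical copies in the genome, so their counts are uncertain.

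Nuclear-encoded genes of the respiratory chain moved the same way. Of 20 genes, 9 were called higher in neurons, 19 in oligodendrocytes, 5 in OPC and 19 in microglia, with medians of 0.96, 1.96, 1.71 and 2.75. Ndufa4, which belongs to complex IV, was at 61.3 and 23.5 against 147 CPM in neurons (1.58) and at 24.0 and 11.7 against 260 CPM in microglia (3.81). Chaperone genes of the cytosol and endoplasmic reticulum were called higher for 8 of 18 in neurons, 4 of 18 in oligodendrocytes, 3 of 16 in OPC and 5 of 16 in microglia, and 0 were called lower. The shares of all tested genes called higher were 2.88%, 7.22%, 1.71% and 11.5% in the same order. Hsp90aa1 rose from 79.2 and 61.5 to 228 CPM in neurons (1.57) and from 45.0 and 35.0 to 349 CPM in microglia (3.07). Calr, the calcium-binding chaperone calreticulin, was at 46.2 and 29.1 against 186 CPM in neurons (2.14) and at 67.8 and 32.3 against 268 CPM in OPC (2.15).

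Genes of the axonal cytoskeleton were called higher in all classes. Of 16 tested in each class, 4 were called higher in neurons, 10 in oligodendrocytes (where 1 was called lower), 6 in OPC and 15 in microglia, with medians of 0.24, 1.90, 1.51 and 2.80. Among all tested genes the shares called higher were 2.88%, 7.22%, 1.71% and 11.5% in the same order. Nefl encodes the light neurofilament subunit of large axons and lies on chromosome 14, 68083863 to 68089095, on the plus strand of GRCm38. It was at 62.4 and 11.2 CPM in untraced neurons against 152 CPM in uninjured ones (1.77, SE 0.32, adjusted p = 6.75e-06), with the untraced libraries far apart. DESeq2 did not call it in neurons. In oligodendrocytes Nefl was at 19.6 and 9.77 against 217 CPM (3.46, SE 0.32, adjusted p = 6.64e-06), and in microglia at 21 and 8.74 against 274 CPM (4.14, SE 0.49, adjusted p = 1.81e-14). In OPC there was 1 UMI in the untraced libraries and 131 in the uninjured one, a ratio of levels of 61.1 (95% counting interval 10.8 to 2431). The medium subunit Nefm overlaps Nefl on the opposite strand in the annotation, and reads of the pair cannot be told apart without strand. In oligodendrocytes Nefm stood at 10.4 and 6.52 against 273 CPM (4.60) and in microglia at 9 and 8.74 against 386 CPM (5.36).

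The 1 gene lower in every class was Ankrd6, an ankyrin-repeat protein of the Wnt pathway (chromosome 4, 32804035 to 32950841, minus strand). It was at 328 and 619 against 191 CPM in neurons (−1.42, SE 0.29, adjusted p = 0.000138) and at 509 and 1372 against 223 CPM in oligodendrocytes (−2.34, SE 0.39, adjusted p = 0.00138). In OPC Ankrd6 was at 419 and 861 against 268 CPM (−1.22, SE 0.33, adjusted p = 0.0138) and in microglia at 249 and 315 against 109 CPM (−1.42, SE 0.41, adjusted p = 0.00581). Untraced replicate 2 was above replicate 1 in each class, and both were above the uninjured library. DESeq2 did not call Ankrd6 in any class (adjusted p from 0.0562 to 0.603), and the fit with all libraries did not call it in neurons (adjusted p = 0.139).

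The hemisection libraries, which belong to the same experiment as the uninjured library, lay mostly on the untraced side. In neurons 41 of the 42 genes were nearer to the untraced than to the uninjured level in each of hemisection replicates 1 and 2 (1000 and 108 neurons). In oligodendrocytes this held for 35 and 33 genes, in microglia for 35 and 30, and in OPC of replicate 2 for 34. Summed mitochondrial transcripts in neurons were at 590 and 680 CPM after hemisection. In microglia they were at 1558 and 2079 CPM, above both untraced libraries and below the 9576 CPM of the uninjured one. In neurons of traced replicates 1 and 2 of experiment 1 (80 and 25 neurons), 39 and 32 of the 42 genes were nearer to the untraced level. The 42 genes were chosen by their difference between the uninjured and untraced libraries. By this choice alone other libraries may lie nearer to the untraced level. Hemisection is also an injury, so these values are given as levels only.

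RNA of some other classes was also higher in the uninjured library, beside the gene groups above. In oligodendrocytes all 9 tested neuron markers were called higher (median 2.87), and their sum was 82.3 and 204 CPM against 983 CPM. In microglia 6 of 9 were called higher (median 3.14, or 3.11 with a member at 0 untraced UMIs set to its bound), with sums of 99.0 and 248 against 1471 CPM. In neurons themselves 1 of 9 was called, and the sum was lowest in the uninjured library. Snap25, a protein of synaptic vesicle fusion, was at 31.7 and 31.8 against 394 CPM in oligodendrocytes (3.35) and at 24.0 and 40.8 against 583 CPM in microglia (4.11). In OPC the neuron-marker sum was 2659, 2692 and 2655 CPM, and 0 of 5 tested members were called. Among all tested genes, 7.22% in oligodendrocytes, 11.5% in microglia and 2.88% in neurons were called higher.

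Oligodendrocyte markers moved in the same way outside oligodendrocytes. They were called higher for 5 of 10 in neurons, 2 of 9 in OPC and 8 of 10 in microglia, and for 0 of 10 in oligodendrocytes, where 2 were called lower. Their sum was 285 and 298 against 860 CPM in neurons, 647 and 711 against 2535 CPM in OPC, and 1737 and 1340 against 4211 CPM in microglia. Astrocyte markers were called higher for 4 of 9 in neurons, 7 of 9 in oligodendrocytes, 0 of 4 in OPC and 5 of 6 in microglia. Microglial markers were called higher for 2 of 7 in neurons, 0 of 10 in oligodendrocytes and 0 of 2 in OPC, and their sum in oligodendrocytes was 76.8 and 291 against 172 CPM. OPC markers were called higher for 2 of 4 in microglia, for 0 of 7 in neurons and for 0 of 8 in oligodendrocytes, and lower for 2 of 8 in OPC. Of all genes tested, 2.88% in neurons, 7.22% in oligodendrocytes, 1.71% in OPC and 11.5% in microglia were called higher. The shares called lower were 2.62% in oligodendrocytes and 0.299% in OPC.

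**Figure D2:**
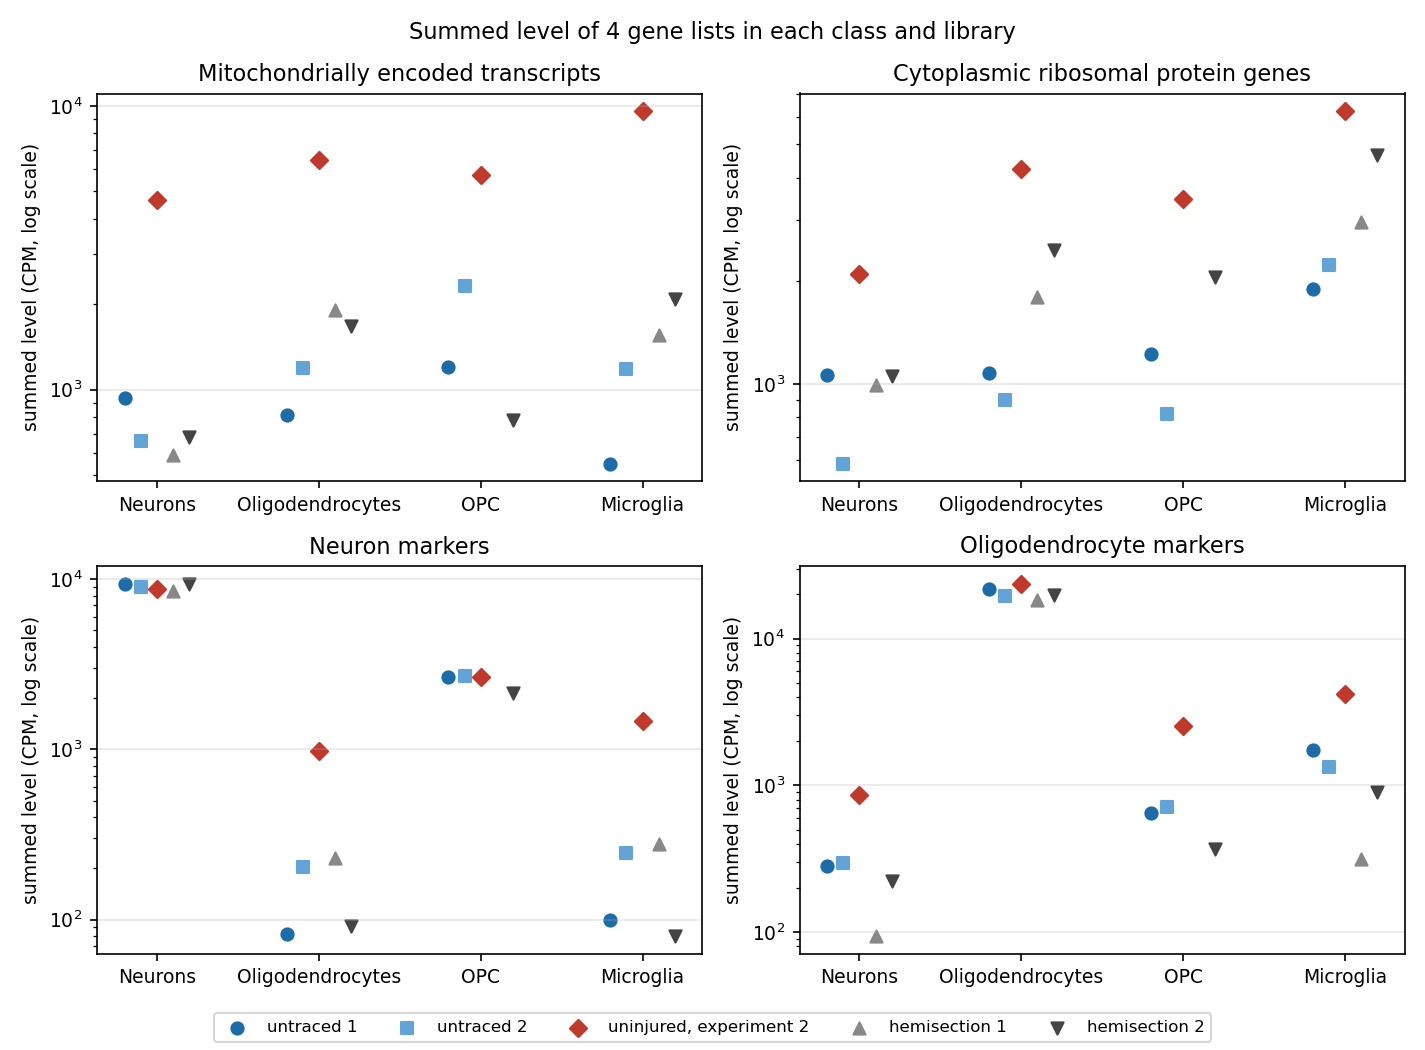
Summed level in CPM (log axis) of 4 gene lists in each class, with 1 point per library; a hemisection library with fewer than 20 nuclei of a class is left out. The uninjured library (red diamonds) is the highest for mitochondrial and ribosomal protein transcripts in all 4 classes, and for neuron markers in oligodendrocytes and microglia, but not for neuron markers in neurons.

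Neuron and oligodendrocyte marker RNA was found in many nuclei of other classes. With each nucleus thinned to 1000 UMIs, 64.0% of uninjured oligodendrocytes held a UMI of a neuron marker, against 9.14% and 18.9% in the untraced libraries. In microglia the share was 71.6% against 8.72% and 22.3%. Unthinned, the shares were 95.2% against 24.1% and 34.2% in oligodendrocytes. Nuclei with 5 or more such UMIs after thinning were 0.823% of uninjured oligodendrocytes and 3.28% of uninjured microglia. The 5% of uninjured oligodendrocytes with the most neuron-marker UMIs held 12.6% of them. Oligodendrocyte markers were seen in 57.8% of thinned uninjured neurons against 27.8% and 29.1%, and in 80.2% of OPC against 43.9% and 44.8%. Microglial markers differed less. They were seen in 16% of thinned uninjured oligodendrocytes, between the untraced shares of 7.70% and 25.1%. For neurons the share was 16.9% against 11% and 14.5%, and for OPC 15.8% against 15.2% and 13.8%. It was above both untraced libraries in neurons and OPC. At the same depth, uninjured nuclei also held more genes, with medians of 742 genes in oligodendrocytes against 681 and 683, and 806 in microglia against 742 and 764. The part of RNA from other classes or the cytoplasm in the calls was not tested.

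Genes called higher in a glial class were often genes with their highest untraced level elsewhere. Each gene was assigned to the class, of the 4, with its highest CPM in the summed counts of both untraced libraries. Of the 934 genes higher in oligodendrocytes, 597 (63.9%) had their highest untraced level in neurons, against 27.6% of all genes tested there. In microglia this was so for 431 of 885 (48.7%), against 20.4% of genes tested. Of the genes called lower, 218 of 339 (64.3%) in oligodendrocytes and 120 of 127 (94.5%) in microglia had their highest level in that class. Among all genes tested the shares were 21.7% in oligodendrocytes and 48.1% in microglia. Median log2 fold changes in microglia were 0.89 for genes highest in neurons and −0.36 for genes highest in microglia. The untraced levels enter both the assignment and the fold change, so these shares are descriptions.

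**Figure D3:**
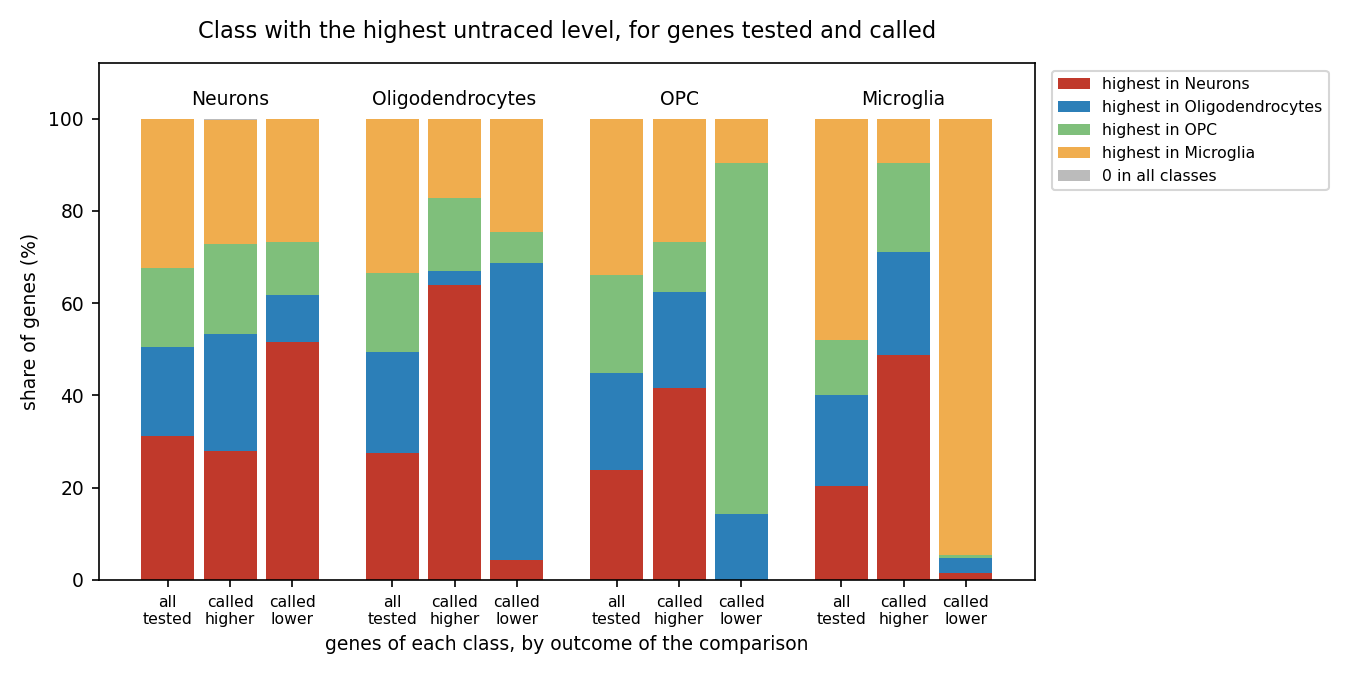
Share in percent (y axis) of tested, called-higher and called-lower genes of each class, split by the class in which the gene's untraced level was highest. Genes highest in neurons make up 63.9% of the higher calls in oligodendrocytes (27.6% of genes tested) and 48.7% in microglia (20.4%). Genes highest in microglia make up 94.5% of the lower calls in microglia (48.1% of genes tested).

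A total of 72 genes were called higher in one class and lower in another. Of these, 66 were lower in the class that had their highest untraced level, and 51 were higher in microglia and lower in oligodendrocytes. Among all genes called lower, the share in their highest class was 51.7% in neurons, 64.3% in oligodendrocytes, 76.2% in OPC and 94.5% in microglia. Microglia had 11.5% of tested genes called higher, and oligodendrocytes 2.62% called lower. The untraced levels enter the assignment and the fold change here too, so these counts are descriptions. The myelin genes Mbp and Mobp were among the 72, chosen here after their values were seen. Mobp was at 1313 and 1539 against 867 CPM in oligodendrocytes (−1.0), at 3.42 and 6.71 against 33.5 CPM in neurons (2.85), and at 21 and 37.9 against 159 CPM in microglia (2.38). Apoe, a lipid carrier made by glia, was called lower in microglia and higher in neurons, oligodendrocytes and OPC. Apoe was also chosen after its values were seen. It was at 1182 and 2529 against 686 CPM in microglia (−1.47), and at 17.7 and 29.1 against 87.9 CPM in neurons (1.91). The levels of Mobp in oligodendrocytes and neurons, and those of Apoe in microglia and neurons, were thus closer in the uninjured library.

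Genes that differed in a single class were taken as those called in 1 class, in no other, and in a test of the class difference itself. That test compared the reference difference of a class with the mean of the other 3 in a fit over all 12 sums with the library as a block. A gene left untested in another class for low counts was taken as not called there. Fewer genes were tested in OPC (7035) and microglia (7716) than in neurons (12936) and oligodendrocytes (12944). The class test also took in classes where a gene's counts were too low for its own test. A gene of a single class was therefore not always tested in the others. In neurons 33 genes met this rule (23 higher, 10 lower, 0.255% of genes tested), of 203 called only there. In oligodendrocytes 190 of 699 did (144 higher, 46 lower, 1.47%), in OPC 11 of 18 (6 higher, 5 lower, 0.156%), and in microglia 278 of 457 (247 higher, 31 lower, 3.6%). DESeq2 left 7, 85, 3 and 27 genes in neurons, oligodendrocytes, OPC and microglia. The fit with all libraries gave 4, 11, 0 and 104 without untraced replicate 1, and 7, 124, 2 and 182 without untraced replicate 2. With equal totals there were 18, 0, 3 and 368. No oligodendrocyte gene was called in that setting, so that class could give no such gene and exclude none elsewhere. The class test alone called 1213 of 12785 genes in neurons (9.49%; 87 higher and 1126 lower than in the other classes) and 711 in oligodendrocytes (5.56%; 363 and 348). It called 404 in OPC (3.16%; 26 and 378) and 965 in microglia (7.55%; 721 and 244). Without the library block it called 349, 173, 34 and 386, and with 31 nuclei in every sum 27, 2, 19 and 8.

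In neurons the higher genes named by rank were Tm2d3, Bcap31 and Poln. Bcap31, an endoplasmic reticulum protein, was at 34.8 and 19.0 against 94.6 CPM (1.62, SE 0.35, adjusted p = 0.000305). Tm2d3, a membrane protein, was at 29.6 and 16.8 against 95.8 CPM (1.85), and the DNA polymerase gene Poln at 18.0 and 6.71 against 43.3 CPM (1.53). The lower genes were regulators of transcription. Kdm6b, a histone demethylase, was at 75 and 87.3 against 24.5 CPM (−1.82, SE 0.37, adjusted p = 9.65e-05). Etv5 was at 25.4 and 43.6 against 13.1 CPM (−1.44) and Hoxb4, a homeobox gene of positional identity, at 63.6 and 50.3 against 24.4 CPM (−1.35, SE 0.38, adjusted p = 0.0163). Hemisection neurons had 52.3 and 52.6 CPM of Hoxb4, close to the untraced level. In the annotation Kdm6b overlaps an antisense gene, and Poln and Tm2d3 overlap neighbours, so their counts may hold reads of both. Of the 6 genes, DESeq2 called Kdm6b (adjusted p = 0.0161) and no other.

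Neuropeptide genes of the dorsal horn were higher in neurons, where 6 of 11 were called (median 1.43), and in oligodendrocytes, where 5 of 11 were (median 2.29). In microglia 2 of 3 were called and in OPC 0 of 1. Among all tested genes, 2.88% in neurons, 7.22% in oligodendrocytes and 11.5% in microglia were called higher. Sst, which encodes somatostatin, was at 114 and 95.1 against 537 CPM in neurons (2.24) and at 18.1 and 8.15 against 96.4 CPM in oligodendrocytes (2.44). Tac2, which encodes neurokinin B, was at 158 and 34.7 against 317 CPM in neurons (1.53) and at 18.0 and 2.91 against 304 CPM in microglia (4.80), where a single nucleus held 263 of the 310 UMIs. The mixture of neurons also differed. Subtypes with names beginning in DE made up 42.4% of uninjured neurons against 54.5% and 57.7%, those in VIP 10.3% against 5.08% and 4.07%, and those in VEP 12% against 7.34% and 4.88%. With 123 neurons drawn from every library, 294 genes were called in neurons, and with equal numbers of each family among the same number of neurons 152 were called.

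In oligodendrocytes the higher genes named were Zfp804a, Sms and Bend6. Sms, which makes the polyamine spermine, was at 7.66 and 3.26 against 53.5 CPM (2.81, SE 0.44, adjusted p = 0.000844). The zinc-finger gene Zfp804a was at 2.76 and 12.2 against 50.5 CPM (2.84), and Bend6 at 6.59 and 8.15 against 52.5 CPM (2.59). All of them had higher levels in neurons, where none was called: Zfp804a was at 542 and 668 against 534 CPM, Bend6 at 237 and 234 against 210 CPM and Sms at 160 and 147 against 103 CPM. The lower genes were Sox2, Cercam and Bicd2. Sox2, a transcription factor of neural stem and glial cells (chromosome 3, 34650405 to 34652461, plus strand), was at 185 and 289 against 78.2 CPM (−1.87, SE 0.29, adjusted p = 0.000825). The hemisection libraries had 181 and 218 CPM of Sox2 in oligodendrocytes, within the untraced range or just below it. Sox2 lies inside Sox2ot on the same strand, so reads of these genes may be mixed. Cercam was at 46.8 and 55.4 against 17.6 CPM (−1.81) and Bicd2, an adaptor of the dynein motor, at 124 and 206 against 67.6 CPM (−1.55). DESeq2 called all 6 genes.

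In OPC the gene with the largest difference of this kind was Enpp6, a choline phosphodiesterase made by newly forming oligodendrocytes (chromosome 8, 46986887 to 47096762, plus strand). It had 2 UMIs in untraced replicate 1 and 0 in replicate 2, and 146 UMIs in the uninjured library. The ratio of levels was 34 (95% counting interval 9.26 to 284). The UMIs came from 24 of 177 uninjured OPC nuclei. For comparison, 166 of 2148 uninjured neurons, taken as background, held a UMI of Enpp6, and so did 17 of 477 untraced neurons. The 24 nuclei carried oligodendrocyte markers at 6936 CPM, against 1718 CPM in the other 153 nuclei, and OPC markers at 19508 against 24368 CPM. Pdgfra, the growth factor receptor of OPC, was found in 7 of the 24 and 149 of the 153. Median UMIs were 5983 in the former and 4782 in the latter. These nuclei were split by Enpp6 after its value was seen, and the comparison is a description.

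The other higher genes named in OPC were Spock1, a matrix proteoglycan, at 15.4 and 0 against 76.0 CPM (2.62), and Frmd4b at 21.6 and 10.8 against 105 CPM (2.40). The lower genes were Arhgef3, Vegfa and Sox8. Vegfa, the angiogenic growth factor, was at 250 and 258 against 69.3 CPM (−1.92, SE 0.41, adjusted p = 0.000473). Sox8, a transcription factor of the oligodendrocyte lineage, was at 345 and 226 against 116 CPM (−1.42), and Arhgef3, a guanine nucleotide exchange factor, at 268 and 312 against 77.1 CPM (−1.93). DESeq2 called none of the OPC genes named here. Vegfa and Sox8 were at 58.0 and 96.6 CPM in OPC of hemisection replicate 2, on the uninjured side, while Arhgef3 was at 551 CPM there. The proteoglycan Vcan and Lhfpl3, markers of OPC, fell from 3555 and 3112 to 1835 CPM (−0.91) and from 11580 and 13061 to 8082 CPM (−0.65).

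In microglia the higher genes named were Skap1, Igkc and Rapgef4. Skap1, an adaptor of T cell adhesion, had 0 UMIs in both untraced libraries and 93 in the uninjured one, at least 20.6-fold higher against a floor of 3 counts over both. Igkc, the constant part of the immunoglobulin kappa chain, had 1 UMI in the untraced libraries against a level of 110 CPM in the uninjured one (ratio 74.3, 95% counting interval 13.1 to 2962). Rapgef4, an exchange factor that neurons express, had 2 UMIs against 81 (ratio 26.9, 95% counting interval 7.21 to 226). The UMIs of Skap1 came from 24 of 366 uninjured nuclei and those of Igkc from 27. Of uninjured neurons, taken as background, 11 of 2148 held a UMI of it. In hemisection microglia Igkc was at 121 and 555 CPM, and in hemisection oligodendrocytes at 139 and 596 CPM.

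Markers of T and B cells in the microglial class summed to 9 and 0 CPM in the untraced libraries and 199 CPM in the uninjured one, and 2 of 2 tested were called higher (Igkc and the B cell receptor gene Cd79a). In the uninjured library 33 of 366 nuclei (9.02%) had 2 or more UMIs of these markers, against 1 of 149 and 0 of 198 in the untraced libraries. Those 33 nuclei had microglial markers at 1973 CPM, against 11364 CPM in the other 333, at median UMIs of 1934 and 2634. Cx3cr1, the fractalkine receptor of microglia, was found in 5 of the 33 and 297 of the 333. The nuclei were split by the T and B cell markers after the values were seen, and the comparison is a description. Skap1 was found in 7 of the 33 and in 17 of the 333.

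The lower genes named in microglia were Rai14, Junb and Jun. Junb, a subunit of the AP-1 transcription factor (chromosome 8, 84974484 to 84978718, minus strand), was at 225 and 300 against 29.4 CPM (−3.19, SE 0.47, adjusted p = 1.59e-09), and DESeq2 also called it (adjusted p = 0.00103). Its partner Jun was at 204 and 134 against 29.4 CPM (−2.56, SE 0.47, adjusted p = 2.69e-06). Rai14, a protein of the actin skeleton, was at 39.0 and 204 against 11.8 CPM (−3.38, SE 0.57, adjusted p = 2.04e-07), with untraced libraries far apart. DESeq2 did not call Jun and Rai14. Junb and Jun overlap other genes on the opposite strand in the annotation. The immediate early genes, which stimulation induces within minutes, were lower as a list: 5 of 7 tested were called lower in microglia (median −2.91). Of all genes tested in microglia 1.65% were called lower. Egr1 was at 111 and 119 against 15.7 CPM (−2.91, adjusted p = 5.07e-06) and Btg2 at 177 and 64.1 against 38.3 CPM (−1.71, adjusted p = 0.00444). Ier2 fell from 30.0 and 58.3 to 2.94 CPM. Fos, at 15 and 46.6 against 1.96 CPM, and Jund, at 108 and 90.3 against 66.7 CPM, were not called.

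**Figure D4:**
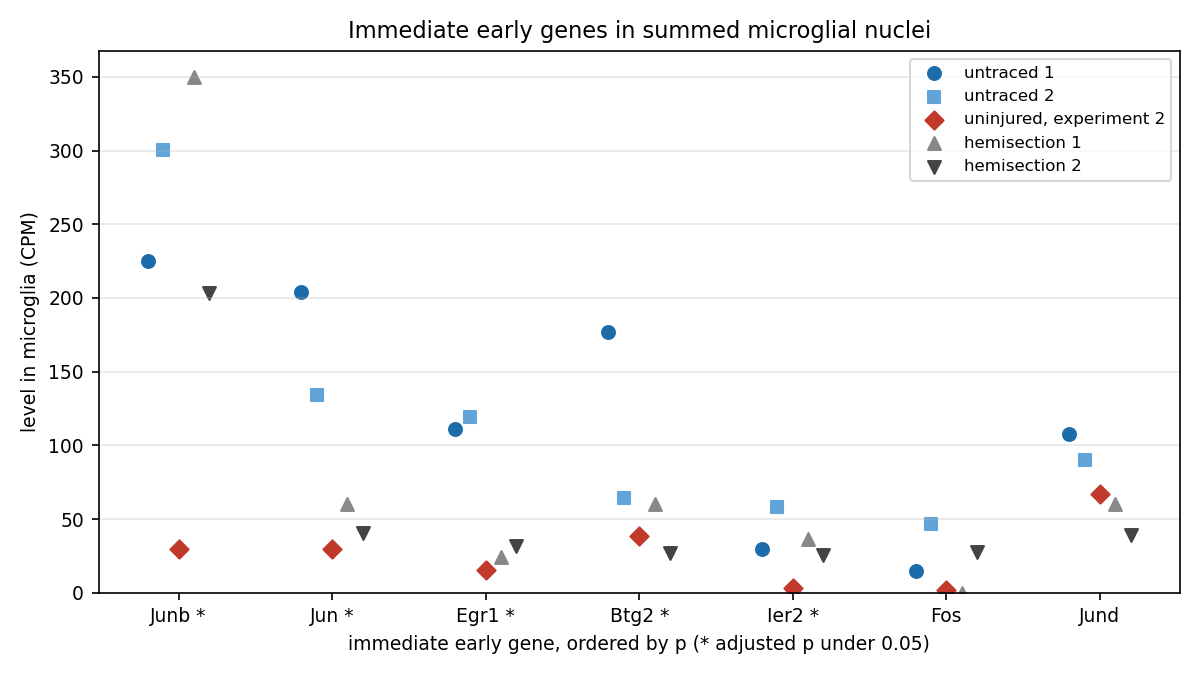
Level in CPM (y axis) of the 7 immediate early genes tested in microglia, with 1 point per library. Both untraced libraries lie above the uninjured library (red diamonds) for each gene, while the hemisection libraries lie near the untraced level for Junb (350 and 203 CPM) and near the uninjured level for Jun (60.4 and 40.8 CPM).

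In the other classes fewer immediate early genes were called. In neurons 1 of 12 tested had a positive fold change (median −1.15), in OPC 0 of 4 (median −1.47) and in oligodendrocytes 5 of 8 (median 0.37). Fos was lower in neurons, at 8.27 and 10.1 against 0.579 CPM (−4.02, SE 0.96, adjusted p = 0.00239), as 1 of 12 tested. In OPC Egr1 was lower, at 58.5 and 129 against 3.35 CPM, as 1 of 4 tested, and in oligodendrocytes 0 of 8 were called. Of all genes tested, 0.464% in neurons, 0.299% in OPC and 2.62% in oligodendrocytes were called lower. The class test gave differences of −3.63 for Junb and −2.43 for Jun between microglia and the other classes (adjusted p = 0.00167 and 1.51e-05). For Egr1, Btg2 and Ier2 it did not reach the threshold (adjusted p = 0.32, 0.31 and 0.41).

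Some splicing and nuclear speckle genes were called lower. Of 18 tested in each class, 4 were called lower in neurons (median −0.56), 4 in oligodendrocytes (−0.54), 1 in OPC (−0.12) and 0 in microglia (−0.35), and 0 were called higher. The shares of all tested genes called lower were 0.464%, 2.62%, 0.299% and 1.65% in the same order. Srsf2, a splicing factor, fell from 163 and 111 to 41.9 CPM in neurons (−1.83) and from 326 and 213 to 104 CPM in oligodendrocytes (−1.67). Srrm2, a scaffold of nuclear speckles, was at 927 and 795 against 505 CPM in neurons (−0.88) and at 733 and 904 against 426 CPM in OPC (−0.97). In the annotation Srsf2 and Srrm2 overlap other genes on the opposite strand, so their counts may hold reads of those genes.

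Glucocorticoid target genes were called in both directions. In oligodendrocytes 3 of 11 were lower, among them Zbtb16 at 266 and 173 against 60.4 CPM (−2.16) and Sgk1 at 211 and 101 against 33.2 CPM (−2.55), and 2 were higher, the metallothioneins Mt1 and Mt2. In OPC 1 of 6 was lower (Zbtb16, −2.33), in microglia 2 of 8 were lower (Fkbp5, −1.63, and Sgk1, −1.30) and 2 higher, and in neurons 1 of 10 was higher (Mt1, 1.42). Of all genes tested, 7.22% in oligodendrocytes, 11.5% in microglia and 2.88% in neurons were called higher. The shares called lower were 2.62% in oligodendrocytes, 0.299% in OPC and 1.65% in microglia. Circadian clock genes were called lower for 2 of 17 in oligodendrocytes (Bhlhe41, −1.50, and Per1, −1.40), higher for 1 of 9 in microglia (Rora, 1.77, where 11.5% of all genes tested were called higher), and for 0 of 18 in neurons and 0 of 11 in OPC. Cholesterol synthesis genes were called for 1 of 10 in microglia (Hmgcs1, 1.62, near the same 11.5%) and for 0 of 16, 0 of 16 and 0 of 13 in neurons, oligodendrocytes and OPC. Of interferon response genes 0 of 5 were called in neurons, 0 of 7 in oligodendrocytes and 0 of 3 in OPC, and 1 of 7 was called lower in microglia. Hbb-bs was called higher in microglia (1.10) as 1 of 4 hemoglobin genes tested, and 0 were called in the other classes. The X-linked demethylase Kdm6a was called lower in oligodendrocytes (−0.86). Of 3 genes that vary between C57BL/6 substrains Cyfip2 was called higher in microglia (3.35), and 0 were called in the other classes. For Hbb-bs and Cyfip2 too, the share of all genes tested in microglia and called higher was 11.5%.

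Of 6 RNAs listed as retained in the nucleus, Snhg11 alone was analysed here. It is abundant in neurons, at 10433 and 6802 against 6620 CPM (−0.48, adjusted p = 0.237). In oligodendrocytes it was at 153 and 131 against 1164 CPM (2.74, SE 0.21, adjusted p = 7.96e-07), and in microglia at 66.0 and 111 against 1736 CPM (4.25, SE 0.39, adjusted p = 5.45e-24). In OPC Snhg11 was at 154 and 140 against 1011 CPM (2.70). Endothelial markers were called higher for 3 of 7 in oligodendrocytes and 1 of 2 in microglia. Pericyte and fibroblast markers were called higher for 1 of 4 in neurons and 2 of 5 in oligodendrocytes. The shares of all tested genes called higher were 2.88% in neurons, 7.22% in oligodendrocytes and 11.5% in microglia. In oligodendrocytes the endothelial sum was 8.51 and 5.70 against 47.6 CPM. Of ependymal markers 0 were called, and of Schwann cell and sensory neuron markers 1 of 2 in oligodendrocytes (Prph).

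Short genes had higher fold changes than others in the medians of all classes. The 33 nuclear genes higher in every class spanned a median of 6.83 kb from first to last annotated base, against 47.4 kb for the 5876 genes tested in every class, 99.4% of which had a span. For genes under 5 kb the median log2 fold change was 0.27 in neurons, 0.79 in oligodendrocytes, 1.00 in OPC and 1.09 in microglia. From 50 to 100 kb it was −0.10, −0.21, −0.06 and −0.19. For genes of 200 kb and over it was 0.78 in microglia, against −0.12, −0.01 and −0.22 in the other classes. In that longest group 37.9% of genes were called higher in microglia (11.5% of all genes tested there), 16.3% in oligodendrocytes (7.22%), 2.96% in OPC (1.71%) and 1.95% in neurons (2.88%). In oligodendrocytes 7.33% of it were called lower (2.62%).

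**Figure D5:**
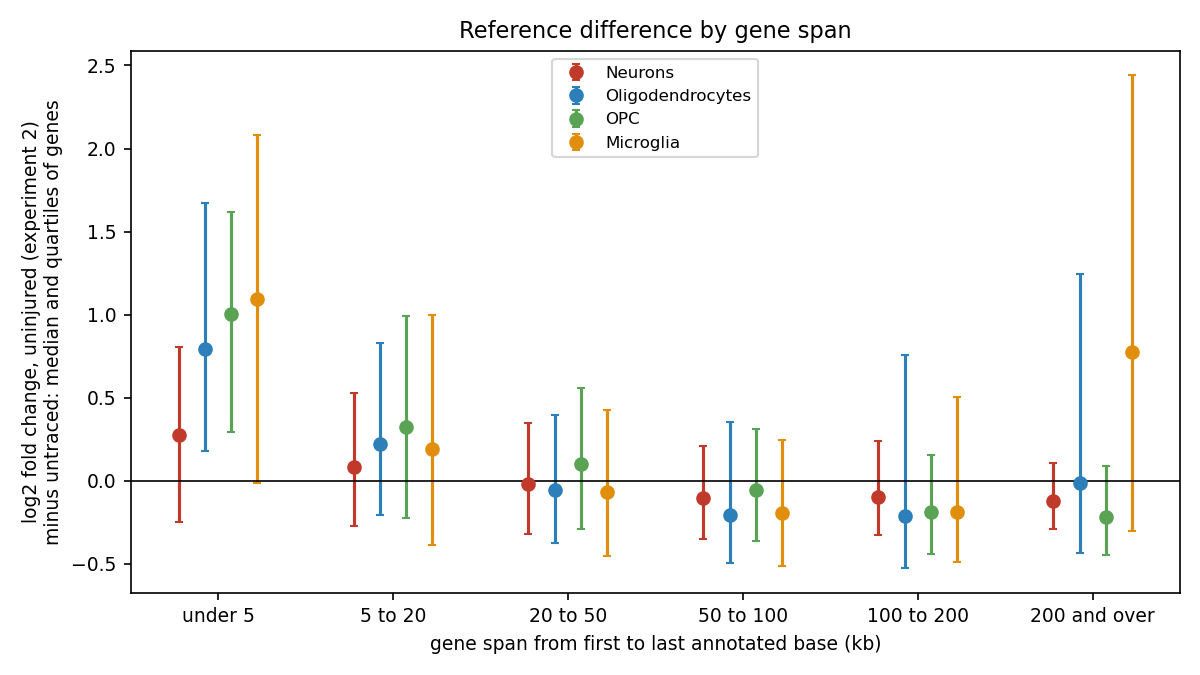
Median log2 fold change (points) and quartiles over genes (bars) by gene span in kb, for each class; positive values are higher in the uninjured library. Genes under 5 kb have the highest median in each class, and in microglia genes of 200 kb and over have a positive median too.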

How the data were processed

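The authors deposited 1 matrix of raw UMI counts per gene and nucleus (19787 genes, 12447 nuclei) with an annotation of each nucleus. The submitters' processing notes name Cell Ranger 4.0.0, Seurat 3 and the builds mm10 and GRCm38. How nuclei were filtered, doublets removed and classes assigned, and whether strand was used, remain not given in the sources used here. Neither a doublet caller nor a further filter was applied.

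Counts were summed per library and class, and edgeR 4.0.16 tested these sums (TMM, filterByExpr with minimum count 10 and minimum total 15, glmQLFit, glmQLFTest) in R 4.3.3, with 1 residual degree of freedom per class and adjusted p under 0.05. The class difference was tested over 12 sums with the library as a block and 3 residual degrees of freedom. Standard errors derive from the moderated F statistic. The scripts were tested on simulated data. DESeq2 1.42.0, other scalings, filters, thinned nuclei or totals, matched neuron families and left-out libraries were alternatives. Values in CPM are UMIs of a gene relative to the total of the sum. Fold changes of groups with 1 to 3 UMIs are ratios of summed levels with a 95% exact binomial interval; these and floors of 3 counts cover counting error only. The depth per sum is given in the text.

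Named genes are the 8 higher and 8 lower with the largest smallest change over classes, and per class the 3 higher and 3 lower of largest change with a mean of at least 20 CPM, no overlap between references and no unnamed gene model. Of 26 lists, 10 of them markers, 2 to 4 members of smallest p are named; other genes were named after their values were seen, and some genes are not reported here. Members and lists were chosen with earlier results of these data known. Coordinates are from GENCODE M21 (GRCm38), in which 19616 symbols were found.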

Additional observations from a re-analysis of the deposited data

Results flagged for a closer look

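For the genes below the reference difference of a class differed from the mean of the other 3 classes in the class test; the values are differences of log2 fold changes, uninjured minus untraced. In neurons the difference was 1.18 for Tm2d3, 0.97 for Bcap31, 1.64 for Poln, −1.46 for Kdm6b, −1.18 for Etv5 and −1.95 for Hoxb4. In oligodendrocytes it was 2.72 for Zfp804a, 2.80 for Sms, 2.35 for Bend6, −2.21 for Sox2, −1.99 for Cercam and −1.16 for Bicd2. In OPC it was 4.30 for Enpp6, 2.59 for Spock1, 2.61 for Frmd4b, −2.28 for Arhgef3, −1.75 for Vegfa and −2.63 for Sox8. In microglia it was 11.01 for Skap1, 7.66 for Igkc, 4.53 for Rapgef4, −2.74 for Rai14, −3.63 for Junb and −2.43 for Jun. The values of Skap1, Igkc, Rapgef4 and Enpp6 rest on 0 to 2 untraced UMIs and depend on the prior count of the fit. The genes were named because they passed this test, so the values describe them.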

How the results depend on the processing

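Fewer genes were called by DESeq2: 57 in neurons, 345 in oligodendrocytes, 11 in OPC, 65 in microglia, 3 in every class and 122 in 1 class (main 512). With equal totals of UMIs 270 genes were called in neurons, 0 in oligodendrocytes (edgeR, unadjusted p under 0.05 for 1553) and 57 in OPC. The count in every class was therefore bound to be 0 (39 by unadjusted p). With equal numbers of nuclei 62 were called in OPC and 23 in every class, and without a filter on low counts 92 in OPC. Equal neuron families, which also cut neurons to 123 per library, left 152 in neurons (294 with equal nuclei alone), and leaving out mitochondrial and ribosomal protein genes left 24 in every class. Without the 10% of nuclei with the most UMIs, also added later, 11 were called in OPC and 5 in every class. Leaving out each untraced replicate in the fit with all libraries, a setting added with the values known, gave 36 to 54 in OPC (with the OPC of hemisection replicate 1, under 20 nuclei, let in), 14 to 25 in every class and 119 to 315 in 1 class. Calls in 1 class under equal nuclei used the class test over all nuclei. The class test called 349, 173, 34 and 386 genes in neurons, oligodendrocytes, OPC and microglia without the library block, and 27, 2, 19 and 8 with 31 nuclei in every sum. Fewer nuclei or UMIs entered the thinned fits. The cause of these and the other changes was not tested. No count reversed direction. Over the named genes, 299 values kept their call and 42 weakened for genes of every class, and 187 and 54 did for genes of 1 class. No paired analysis was possible because the uninjured arm holds 1 library, whose label carries no replicate number, so the groups share fewer than 2 numbers. Totals per sum differed, and thinning them to the smallest of each class changed the counts as given above. Oligodendrocytes, with a smallest total of 1227684 UMIs, then had 0 calls, while microglia, at 333374 UMIs, had 777.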
